A study of Homo sapiens with 16 samples.

Results

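The 5 libraries compared here are HepG2 clones kept in palmitic acid: 3 clones that are heterozygous (GC) and 2 clones that are homozygous C (CC) at PNPLA3 I148M, out of 16 libraries in the series. They were chosen by genotype and treatment in the labels, not by any measured value. HepG2 is an established human liver cancer line, and the clones were made by prime editing, in which a reverse transcriptase fused to a nicking Cas9 writes a chosen base change into the genome. The other 11 libraries are 3 GG clones with and without palmitic acid and the same GC and CC clones without it. GC2, GC3 and GC4 carry 1 C and 1 G allele, CC1 and CC3 carry C alleles only, and all 5 received 250 µM palmitic acid. The protocol gives 48 h for every treated library, while the labels of the single libraries give 51, 52 and 53 h for GC2, GC3 and GC4 and 54 and 55 h for CC1 and CC3, so that this label and the genotype cannot be told apart. Each library is a different clone with 1 library per treatment, so differences between GC and CC contain all other differences between those clones.

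PNPLA3 encodes a lipid droplet protein of hepatocytes with activity on triglycerides and retinyl esters. The change of isoleucine to methionine at residue 148 lets the protein build up on droplets, and it is a common inherited risk factor for fatty liver disease. Palmitic acid is a saturated fatty acid that hepatocytes burn in mitochondria, store as triglyceride in droplets or turn into ceramides, and in excess it stresses the endoplasmic reticulum. The edited codon lies in exon 3 of the plus-strand transcript ENST00000216180 at chr22:43928845-43928847 on GRCh38, and is shown because it is the designed difference between the groups. The capitals mark the codon for residue 148, which reads isoleucine, the C allele, in the GENCODE transcript.
PNPLA3 codon 148 and its flanks: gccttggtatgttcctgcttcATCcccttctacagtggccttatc

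The deposited table holds normalised read counts for 16558 genes, as CPM with TMM scaling, called units below. The test covered the 13082 genes whose average over the 5 libraries reached 1 unit. The 5 libraries held 9314342 reads (CC3) to 14442666 reads (GC2), so that 1 read was worth 0.0681 to 0.108 units, and 15662 to 16078 genes had a read. Differences are log2(value + 0.5) of GC minus CC with the standard error (SE), from limma fitted on the 8 treated libraries with their 3 genotype groups, which left 5 residual degrees of freedom. The 2 CC clones differed from each other by more than GC differed from CC. Of the sum of squares over all tested genes, 26.5% lay between GC and CC (1 degree of freedom), 36.7% among the 3 GC clones (2 degrees) and 36.8% between the 2 CC clones (1 degree). CC3 stood apart on the first principal component, which held 45.1% of the variance, with a score of 60.2 against -39.5 (GC4), -19.3 (CC1), -2.38 (GC3) and 0.982 (GC2). CC3 was the highest of the 5 libraries at 3543 genes (27.1%) and the lowest at 3930 genes (30.04%). The median SE of a gene was 0.274, and 510 genes (3.90%) differed by at least 1 on the log2 scale.

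MUC5AC was the only gene of 13082 (0.00764%) that passed limma's test at an adjusted p of 0.05, and it was lower in the GC clones. MUC5AC encodes a secreted gel-forming mucin of gastric and airway surface mucous cells, and lies at chr11:1157953-1201138 on GRCh38. Here and below, values in units stand in the order GC2, GC3 and GC4, then CC1 and CC3. Its level was 0.0681, 0 and 0 in GC and 7.67 and 10.2 in CC, from 1, 0 and 0 reads against 109 and 94 reads. Both CC libraries were far above the GC libraries, and the groups did not overlap. MUC5AC passed the filter on low values only through the CC clones, where it was high. The log2 difference was -4.16 ± 0.32 (adjusted p = 0.0131). Pooled over the clones, the CC level was 328 times the GC level, with a 95% exact interval of 58.1 to 13003 for the ratio that covers counting error only. Without palmitic acid the same clones held 0 reads, except 1 read (0.0798 units) in CC3. The call ended when any 1 of the 5 libraries was left out (adjusted p from 0.0873 to 0.193), and also with only the 5 libraries in the fit (0.227), with a pseudocount of 0.1 (0.160) and in edgeR's quasi-likelihood test on the recovered reads (0.527), while the sign held in each. At an unadjusted p under 0.05 there were 477 genes higher (3.65%) and 343 lower (2.62%) in GC. edgeR called 0 genes, with 806 at an unadjusted p under 0.05, and DESeq2 called 16, of which 10 were higher and 6 lower in GC, MUC5AC among the lower.

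**Figure D1:**
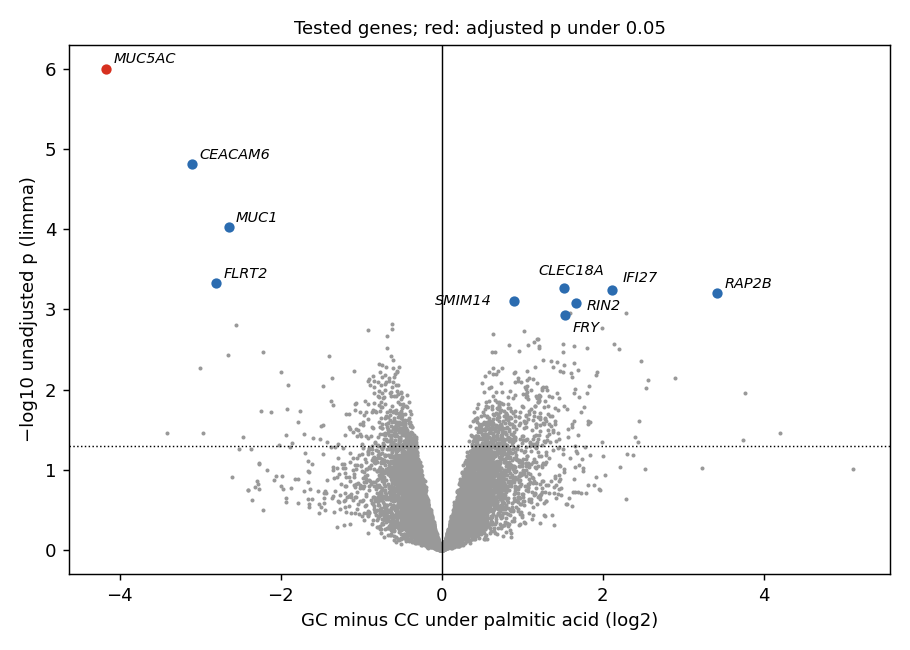
Each point is 1 of 13082 tested genes, with the log2 difference of GC minus CC under palmitic acid on the x axis and −log10 of limma's unadjusted p on the y axis; the dotted line marks an unadjusted p of 0.05. MUC5AC (red) at -4.16 is the only gene past limma's adjusted p of 0.05, and the labelled blue points are genes given in the text.

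MUC5AC did not stand alone in the treated CC clones. In a search made after the values were seen, 9 genes had at least 4 reads in both treated CC libraries and a lower CC value over 4 times the highest of the other 14 libraries plus 0.1 units. They were MUC5AC, CEACAM6, MUC1, TFF2, TFF1, REG4, ALDH1A3, KLK10 and PRSS2. Several of these are textbook genes of mucus-secreting gastric or intestinal epithelium. TFF1 and TFF2 encode trefoil peptides secreted with gastric mucus, MUC1 is a membrane mucin, CEACAM6 is a cell-surface adhesion protein of gut epithelium, REG4 is a secreted lectin of the gut, and PRSS2 is a trypsinogen of the pancreas. CEACAM6 had 0 reads in all 14 other libraries and 4.71 units in CC1 and 3.04 in CC3 (67 and 28 reads), a level at least 51.1-fold higher in CC than the 3 reads over the GC group that a count of 0 allows. Its log2 difference of -3.10 ± 0.34 missed the threshold (adjusted p = 0.1005). MUC1 was at 0, 0.241 and 0.0938 in GC and 3.52 and 3.04 in CC, with a log2 difference of -2.64 ± 0.37 (adjusted p = 0.409). TFF2 stood at 2.25 units in CC1 and 1.95 in CC3, TFF1 at 1.55 units in CC1 and 2.06 in CC3 and REG4 at 1.55 units in CC1 and 1.95 in CC3, each with 0 reads in all 3 treated GC clones. These 3 genes and ALDH1A3, KLK10 and PRSS2 lay under the mean of 1 unit and were not tested in the main comparison. MUC5AC, CEACAM6 and MUC1 reached that mean only through the CC clones. The level in CC3 was 0.644 (CEACAM6) to 1.33 (TFF1) times that in CC1 over the 9 genes.

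**Figure D2:**
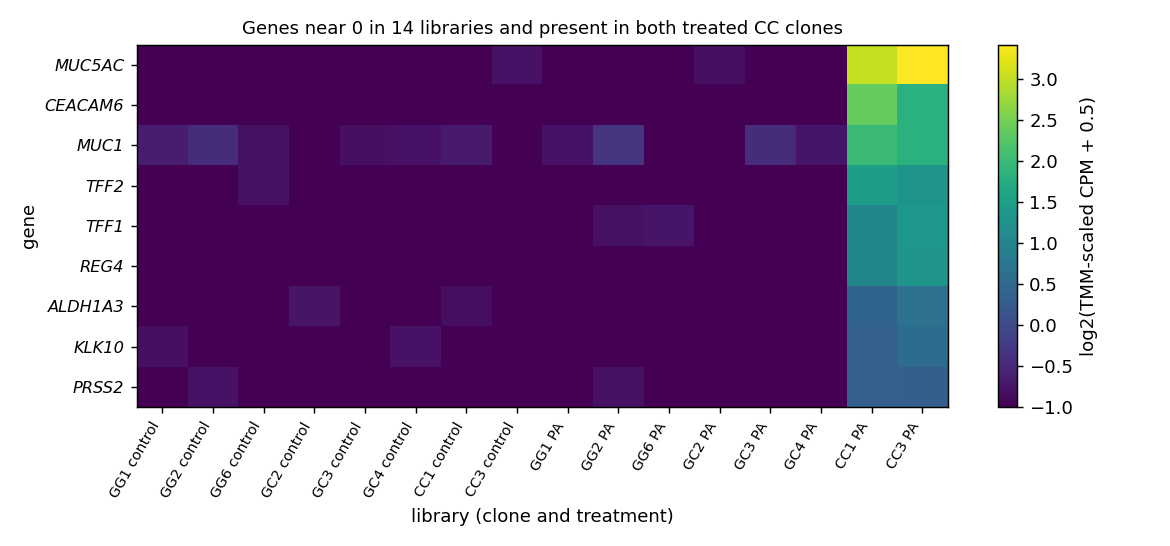
The 9 genes present in both treated CC clones (rows) in all 16 libraries (columns), with log2(units + 0.5) as colour. The last 2 columns, the treated CC clones, hold values from 0.759 to 10.2 units, and the other 14 columns hold at most 0.297 units.

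A list of 23 genes of gastric and mucous epithelium, written after these values were seen, showed where this pattern ended. The table holds 16 of them, and all 16 had reads in both treated CC libraries, against 8 to 11 with reads in each of the other 14. Of the 16, MUC5AC, CEACAM6, MUC1, TFF1, TFF2 and REG4 had been picked by the search above, which required reads in both treated CC libraries. For these genes the contrast was fixed by that search. In 9 of the 16 both treated CC libraries were above all 14 others: MUC5AC, MUC6, MUC1, TFF1, TFF2, TFF3, REG4, CEACAM5 and CEACAM6. Only MUC6, TFF3 and CEACAM5 among them had not been picked by that search. MUC6, the gland mucin of the stomach, was at 0.136, 0.321 and 0 in GC and 1.76 and 2.17 in CC. CEACAM5 was at 0.0681, 0.321 and 0.188 in GC and 1.41 and 1.95 in CC. In each of the other 7 genes at least 1 of the 14 libraries was above a treated CC library, among them GCNT3 at 31.0, 32.7 and 12.8 in GC and 14.4 and 58.8 in CC and PGC, the pepsinogen C gene, at 12.9, 9.07 and 10.6 in GC and 7.39 and 1.63 in CC. In the GC clones most of the summed level came from GCNT3 and PGC, and GCNT3 was highest in CC3. The summed level of the 16 genes was 28.2 to 52.1 units in the treated GC clones, 54.9 and 94.9 in CC1 and CC3, and 43.3 to 69.9 in the other 11 libraries. Whether RNA of another source is part of these counts, and with them of the MUC5AC difference, was not tested. In bulk RNA, a few cells with much of a transcript and many cells with little of it cannot be told apart.

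The difference between GC and CC was compared with that of the same clones without palmitic acid, to ask which genes differed only after the fatty acid. The test of the difference itself, on all 16 libraries, called 2 of 13082 genes (0.0153%), MUC5AC and CEACAM6. The filter on low values used the 5 treated libraries only, so both genes passed it through the treated CC clones, and genes with reads mainly in untreated libraries were not tested. The change of GC minus CC from control to palmitic acid was -4.06 ± 0.38 for MUC5AC (adjusted p = 0.00102) and -3.10 ± 0.39 for CEACAM6 (adjusted p = 0.0170). With each clone as a block, which pairs the treated and the untreated library of a clone, 1 gene was called (0.00764%), MUC5AC (adjusted p = 0.00947), and CEACAM6 was not (0.117). Leaving out both libraries of CC3 ended the call of MUC5AC too (0.0893). The genes with the smallest p in the other direction, none of them called, were MOB3C, GRTP1, CHADL, TLDC2, INGX and DNPEP. GRTP1, which encodes a protein with a domain of Rab GTPase activators, stood at 24.6, 21.99 and 25.5 in GC and 16.7 and 15.8 in CC under palmitic acid and at 25.1, 25.2 and 25.1 against 25.4 and 22.5 without it. The groups overlapped without palmitic acid, where CC1 was the highest of the 5, and did not overlap with it. Without palmitic acid, limma called 0 of 13082 genes (0%) between GC and CC, with 319 at an unadjusted p under 0.05 and a smallest adjusted p of 0.996.

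Beyond MUC5AC, the genes with the smallest unadjusted p, no overlap of GC and CC and at least 5 units where the level was higher are given as a description, since limma called none of them (adjusted p = 0.750 for each) and edgeR called 0 genes. DESeq2 called 10 of them: CLEC18A, RAP2B, SMIM14, RIN2, FRY, H6PD and TESC among those higher in GC and FLRT2, DEK and NSFL1C among those lower, with adjusted p from 0.000693 (FLRT2) to 0.0378 (TESC). Over all tested genes, all 3 GC libraries were above both CC libraries at 1728 genes (13.2%) and below both at 1606 (12.3%). Among the 15 higher in GC, RAP2B, a small GTPase of the Ras family, was nearly absent from the CC clones, at 2.93, 3.93 and 16.0 in GC and 0.0704 and 0.108 in CC (log2 difference 3.42 ± 0.63). GC4 was well above GC2 and GC3, and without palmitic acid the difference was 3.36. RIN2, an effector of Rab5 in endocytosis, was at 28.3, 20.95 and 22.5 in GC and 6.47 and 7.81 in CC (1.67 ± 0.32). FRY, a microtubule-associated protein, was at 41.0, 36.6 and 35.2 in GC and 12.5 and 12.8 in CC (1.53 ± 0.31). In both genes the clones of each genotype lay close together. CLEC18A, a secreted lectin with near-identical copies that make its counts uncertain, was at 10.4, 9.23 and 13.9 in GC and 3.94 and 3.15 in CC (1.52 ± 0.27).

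ACSL6, which activates long-chain fatty acids to their coenzyme A esters, was at 11.6, 8.35 and 6.66 in GC and 2.95 and 2.495 in CC (1.51 ± 0.35). Without palmitic acid CC3 held 12.2 units, within the GC range of 7.42 to 15.6. ACSM3, which does the same for medium-chain fatty acids, was at 23.7, 31.5 and 37.3 in GC and 11.9 and 16.8 in CC (1.07 ± 0.25). GCKR, the regulator that binds glucokinase and a known fatty liver risk locus, was at 18.5, 13.7 and 29.6 in GC and 8.30 and 4.23 in CC (1.64 ± 0.39). H6PD, which makes NADPH inside the endoplasmic reticulum, was at 146, 152 and 156 in GC and 101 and 92.9 in CC (0.64 ± 0.14), a small difference with a narrow spread in both groups. TNFAIP3, the deubiquitinase A20 that limits NF-kB signalling, was at 138, 146 and 218 in GC and 58.1 and 93.4 in CC (1.15 ± 0.27). The others were SMIM14 (0.90 ± 0.17), STAP2 (1.03 ± 0.23), SHC2 (1.18 ± 0.27), TESC (2.14 ± 0.50), EVA1A (0.83 ± 0.20) and BCAN (1.21 ± 0.29).

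Lower in GC besides MUC5AC, FLRT2, a membrane protein of cell adhesion and guidance, was at 8.30, 12.8 and 3.10 in GC and 53.5 and 50.1 in CC (-2.80 ± 0.49). KIF26B, a kinesin-related protein, was at 0.885, 1.69 and 2.34 in GC and 18.995 and 8.03 in CC (-2.65 ± 0.66). Both were also lower in all GC clones without palmitic acid, with log2 differences of -1.91 and -2.38. The chromatin protein DEK was at 157, 158 and 158 in GC and 235 and 250.1 in CC (-0.62 ± 0.13), and CTCF, the factor that anchors chromatin loops, at 67.8, 63.7 and 62.9 in GC and 99.0 and 97.9 in CC (-0.60 ± 0.16). TCF7, a transcription factor of Wnt signalling, stood at 21.6, 18.5 and 16.8 in GC and 34.5 and 37.6 in CC (-0.92 ± 0.20). PTPN1, the phosphatase PTP1B that acts on the insulin receptor, was at 77.7, 78.6 and 69.4 in GC and 108 and 109 in CC (-0.53 ± 0.14). In these last 4 genes the gap between the groups was wider than the range within either. The remaining 8 were NSFL1C (-0.62 ± 0.13), RFWD3 (-0.68 ± 0.15), RPS26 (-0.68 ± 0.16), TTI1 (-0.63 ± 0.16), ECE1 (-0.60 ± 0.15), CTNNBL1 (-0.77 ± 0.20), ZNF92 (-0.74 ± 0.19) and ZMYND8 (-0.69 ± 0.18), and RPS26 has near-identical copies that make its counts uncertain. NSFL1C, TTI1, CTNNBL1, PTPN1 and ZMYND8 all lie on chromosome 20, as does RIN2, which was higher in GC.

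**Figure D3:**
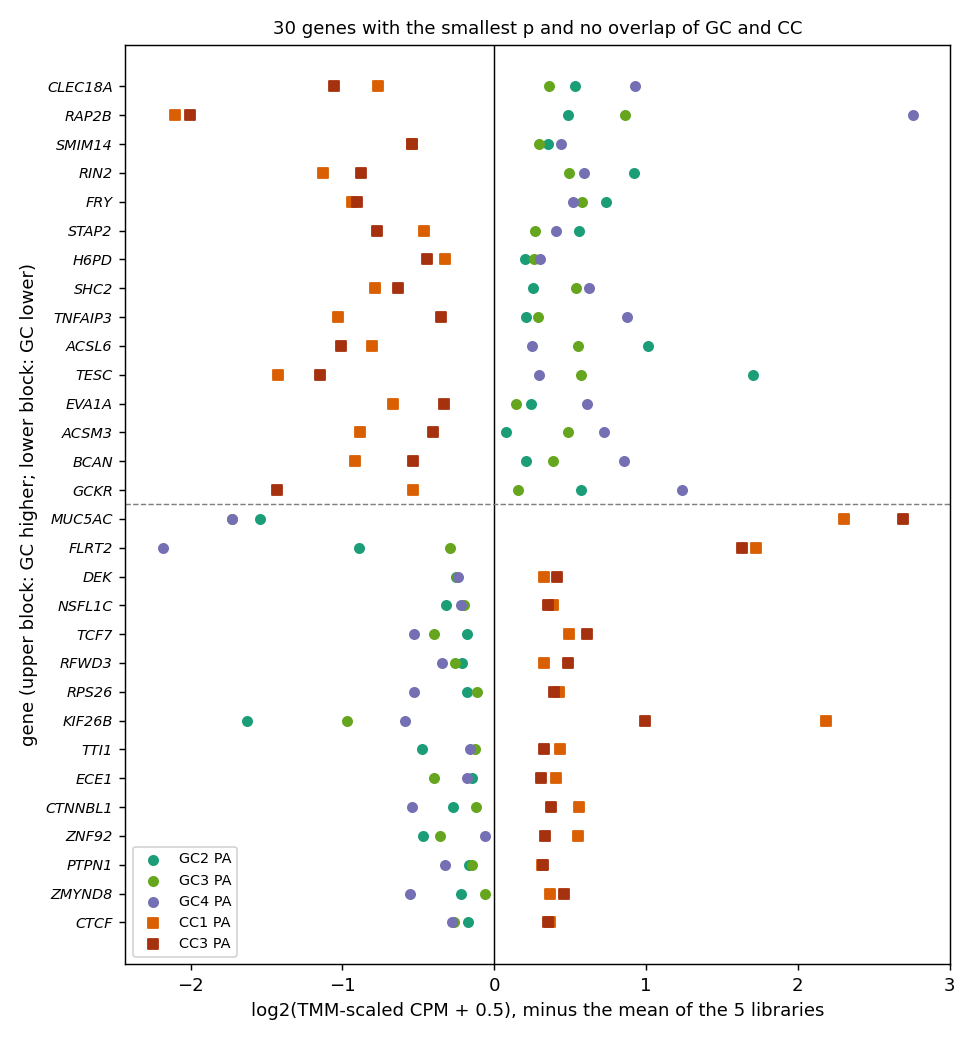
The 15 genes higher (upper block) and 15 lower (lower block) in GC with the smallest p and no overlap between groups; each point is 1 treated clone, as log2(units + 0.5) minus the mean of the 5 libraries. Circles are GC clones and squares CC clones, and in each row all circles lie on 1 side of both squares; limma called only MUC5AC, and DESeq2 called MUC5AC and 10 others of the genes shown.

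Among genes without overlap, 4 with large log2 differences toward GC had a wide spread among the GC clones. AKR1C3, an aldo-keto reductase of steroid and prostaglandin metabolism, was at 6.67, 23.6 and 32.4 in GC and 0.633 and 0.325 in CC (4.21 ± 1.66). FSTL5 was at 1.57, 21.03 and 11.2 in GC and 0.0704 and 0.108 in CC (3.77 ± 1.15), TSPAN7 at 3.27, 5.22 and 45.9 in GC and 0.281 and 0.217 in CC (3.74 ± 1.56) and FBLN2, a matrix fibulin, at 1.36, 19.4 and 4.13 in GC and 0.0704 and 0.108 in CC (3.24 ± 1.71). GC2 was the lowest GC clone in all 4 genes, and the highest was GC4 or GC3. In the other direction LMX1B, a LIM homeobox factor, was at 3.20, 14.4 and 0.469 in GC and 45.9 and 34.3 in CC (-3.42 ± 1.34) and RAB37, a secretory Rab GTPase, at 1.84, 1.69 and 2.44 in GC and 23.9 and 14.8 in CC (-2.97 ± 1.17). The GC clones lay apart in LMX1B and close together in RAB37. The treated GG clones, whose spread enters the SE, lay apart in all 6 genes. GG1, GG2 and GG6 were at 68.1, 46.3 and 0.457 in AKR1C3 and 4.39, 33.6 and 3.29 in FSTL5. They were at 0.314, 19.9 and 0.183 in TSPAN7 and 0.235, 30.2 and 0 in FBLN2. In LMX1B they were at 42.7, 2.82 and 43.7, and in RAB37 at 0.627, 1.04 and 25.4. FSTL5 was the only gene of these 6 that DESeq2 called (adjusted p = 0.00670). The differences of the same clones without palmitic acid were 4.24, 3.96, 3.03 and 3.69 for the 4 genes higher in GC and -2.84 and -2.63 for LMX1B and RAB37, of the same sign in each. IFI27, an interferon-induced mitochondrial protein, was at 5.44, 4.17 and 3.10 in GC and 0.281 and 0.976 in CC (2.11 ± 0.38, and 2.08 without palmitic acid).

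PNPLA3 itself was at 13.1, 9.55 and 9.29 in GC and 14.8 and 2.39 in CC, and the groups overlapped because CC1 was the highest and CC3 the lowest of the 5. The log2 difference was 0.73 ± 0.66 (adjusted p = 0.797), and it was -0.48 without CC3. SAMM50, its neighbour and a part of the mitochondrial outer membrane sorting complex, was at 54.0, 50.6 and 42.7 in GC and 58.0 and 33.0 in CC (0.16 ± 0.28, adjusted p = 0.896, and -0.25 without CC3). PARVB was not analysed here. Of 11 tested genes at and near PNPLA3 on chromosome 22, a list that includes PNPLA3 itself, 0 were called. Of these, 1 had an unadjusted p under 0.05, NUP50, a nucleoporin, at 117, 114 and 127 in GC and 163 and 190.4 in CC (-0.56 ± 0.15). At that p, 3.65% of all genes were higher and 2.62% lower in GC. The median of the 11 log2 differences was 0.47, against 0.00 over all tested genes, and it was 0.23 without CC1 and 0.22 without CC3. All GC clones were above both CC clones at 3 of the 11 and below at 1, NUP50, beside 13.2% and 12.3% of all genes.

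Genes of lipid handling were compared by gene lists, and in each list limma called 0 genes. The counts beside them are of unadjusted p under 0.05 and of groups that did not overlap. Over all tested genes, 3.65% were higher and 2.62% lower in GC at that unadjusted p. Of 16 droplet coat genes, 2 had an unadjusted p under 0.05, both higher in GC, and the median log2 difference was 0.18. PLIN4, a perilipin of the droplet surface, was at 16.8, 15.9 and 13.3 in GC and 5.70 and 11.6 in CC (0.86 ± 0.34). PLIN5, the perilipin that ties droplets to mitochondria, was at 1.91, 0.883 and 3.85 in GC and 0.844 and 0 in CC (1.57 ± 0.60). CIDEC, which promotes droplet fusion, was at 10.1, 8.67 and 4.50 in GC and 2.95 and 6.08 in CC (0.72 ± 0.41), with overlap. Of 19 genes of triglyceride synthesis and hydrolysis, 1 had an unadjusted p under 0.05, GPAM, the mitochondrial enzyme of the first acylation of glycerol phosphate, at 496, 633 and 953 in GC and 489 and 328 in CC (0.74 ± 0.31). LIPC, the hepatic lipase, was at 5.31, 10.9 and 34.1 in GC and 6.82 and 0.217 in CC (2.53 ± 1.34) and DGAT2, which makes triglyceride, at 56.4, 60.7 and 96.8 in GC and 65.1 and 25.4 in CC (0.76 ± 0.45), and in both genes CC3 was the lowest library.

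Fatty acid oxidation genes leaned higher in GC. All 3 GC clones were above both CC clones at 9 of 27 tested genes and below at 0, beside 13.2% and 12.3% of all genes, and the median log2 difference was 0.20 (0.51 without CC1 and 0.08 without CC3). ETFB, the electron transfer flavoprotein subunit that takes electrons from acyl-CoA dehydrogenases, was at 191, 186 and 195 in GC and 131 and 116 in CC (0.63 ± 0.15). EHHADH, a peroxisomal oxidation enzyme, was at 65.9, 66.9 and 85.9 in GC and 60.4 and 23.7 in CC (0.93 ± 0.45). CPT1A, which admits long-chain fatty acids to mitochondria and is named here after its values were seen, ran against the list at 42.1, 22.1 and 5.06 in GC and 31.0 and 96.2 in CC (-1.66 ± 0.90), with a wide spread in both groups. Fatty acid synthesis had a median of 0.15 (0.23 without CC1 and 0.0091 without CC3), with 0 of 19 genes at an unadjusted p under 0.05, and ELOVL6, an elongase of saturated fatty acids, was at 41.3, 33.2 and 46.4 in GC and 24.3 and 34.7 in CC (0.45 ± 0.22). Of 29 cholesterol genes, SOAT2, which esterifies cholesterol, had the smallest p at 55.0, 41.1 and 36.2 in GC and 22.9 and 15.0 in CC (1.21 ± 0.38), and the list median of 0.14 became -0.16 without CC3. Of 16 genes of fatty acid uptake and activation and 28 of ceramide metabolism, 0 had an unadjusted p under 0.05, with medians of 0.04 (0.18 without CC1 and 0.05 without CC3) and -0.0033 (-0.11 without CC1 and 0.0053 without CC3). ACSL5, an acyl-CoA synthetase, was at 108, 128 and 93.7 in GC and 154 and 407 in CC (-1.20 ± 0.67), highest in CC3.

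Of 37 nuclear genes of oxidative phosphorylation, which build the respiratory complexes, 13 had all GC clones above both CC clones and 1 below. The shares over all tested genes were 13.2% above and 12.3% below. The median log2 difference was 0.17 (0.21 without CC1 and 0.12 without CC3). At an unadjusted p under 0.05, 4 were higher in GC, beside 3.65% of all genes. NDUFB5 of complex I was at 84.1, 99.9 and 115 in GC and 61.1 and 59.6 in CC (0.71 ± 0.19), CYC1 of complex III at 69.3, 91.7 and 113 in GC and 66.3 and 49.6 in CC (0.64 ± 0.26) and NDUFV1 of complex I at 79.4, 92.1 and 123 in GC and 67.4 and 63.7 in CC (0.55 ± 0.23). GC4 was the highest library in all 3. NDUFB5 lies on chromosome 3 and NDUFV1 on chromosome 11, where GC4 was also high over many genes, as given below for the chromosomes.

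By their median, hepatocyte marker genes were lowest in CC3 and highest in CC1. The 12 hepatocyte markers were all present, with a summed level of 26659 to 36012 units in GC, 26417 in CC1 and 16272 in CC3. Their centred medians were 0.12, 0.19 and 0.43 in the GC clones and 0.48 and -0.94 in CC1 and CC3, and the median log2 difference of 0.49 became -0.22 without CC3 and 1.22 without CC1. ASGR1, a subunit of the asialoglycoprotein receptor, was at 205, 197 and 243 in GC and 152 and 98.4 in CC (0.81 ± 0.28). AHSG, the plasma protein fetuin-A, was at 2299, 3273 and 6962 in GC and 1460.2 and 1749 in CC (1.23 ± 0.44). TF, transferrin, named here after its values were seen, was at 979, 1189 and 3327 in GC and 1631 and 279 in CC (1.22 ± 0.76), with CC1 above 2 of the GC clones. The 26 plasma protein genes had a median of 0.46 (0.92 without CC1 and -0.04 without CC3), and VTN, vitronectin, was at 128, 99.6 and 125 in GC and 84.0 and 61.2 in CC (0.70 ± 0.24).

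Coagulation and complement genes leaned higher in GC, by their median against each CC clone. All GC clones were above both CC clones at 10 of 33 genes and below at 0, beside 13.2% and 12.3% of all genes. The median log2 difference was 0.49 (1.07 without CC1 and 0.26 without CC3). The summed level did not separate the groups, at 10727, 8672 and 9478 in GC and 10978 and 5568 in CC. F12, coagulation factor XII, was at 2.38, 3.45 and 3.10 in GC and 0.704 and 1.08 in CC (1.32 ± 0.43), the complement protease C2 at 226, 272 and 391 in GC and 192 and 137 in CC (0.83 ± 0.30) and F10, factor X, at 50.8, 50.5 and 61.1 in GC and 42.6 and 21.5 in CC (0.82 ± 0.29). Amino acid catabolism showed 8 of 24 above and 0 below, beside 13.2% and 12.3% of all genes, with a median of 0.41 (0.69 without CC1 and 0.30 without CC3). ALDH4A1 and PRODH, both enzymes of proline breakdown, were at 126, 125 and 118 in GC and 71.9 and 59.3 in CC (0.90 ± 0.25) and at 1.70, 1.69 and 1.501 in GC and 0.633 and 0.325 in CC (1.14 ± 0.32). Apolipoprotein genes gave 5 of 18 above and 0 below, beside 13.2% and 12.3% of all genes, with a median of 0.40 (0.68 without CC1 and 0.12 without CC3). ANGPTL4, an inhibitor of lipoprotein lipase, was at 1.02, 1.61 and 1.78 in GC and 0.492 and 0.217 in CC (1.20 ± 0.39). APOA5, a plasma regulator of triglyceride, was at 18.7, 13.2 and 20.9 in GC and 13.1 and 1.84 in CC (1.66 ± 0.72).

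Bile acid genes had a median of 0.46 over 13 genes (0.64 without CC1 and 0.09 without CC3). ABCC3, a basolateral exporter of conjugated bile acids, was at 26.1, 26.6 and 36.9 in GC and 7.74 and 21.3 in CC (1.16 ± 0.38) and ABCB4, the phospholipid exporter into bile, at 19.7, 19.7 and 21.6 in GC and 12.8 and 14.0 in CC (0.58 ± 0.22). Among 27 hepatocyte transcription factors and lipid-sensing receptors the median was 0.28 (0.34 without CC1 and 0.26 without CC3). At an unadjusted p under 0.05, 3 were higher and 0 lower in GC, beside 3.65% and 2.62% of all genes. ESRRA, a nuclear receptor of mitochondrial genes, was at 29.6, 28.9 and 41.1 in GC and 16.4 and 24.2 in CC (0.70 ± 0.24). PPARA, the fatty acid receptor that drives oxidation genes, was at 73.1, 63.7 and 95.1 in GC and 59.2 and 30.2 in CC (0.84 ± 0.34). FOXA2, a liver pioneer factor, was at 40.6, 43.9 and 49.1 in GC and 28.4 and 35.0 in CC (0.49 ± 0.17), and lies in the stretch of chromosome 20 that was higher in GC, described below. The 25 drug metabolism genes had a median of 0.24 that became -0.11 without CC3, and MGST2, a microsomal glutathione transferase, was at 137, 97.0 and 127 in GC and 90.5 and 78.4 in CC (0.50 ± 0.20).

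Heat shock genes leaned lower in GC. All GC clones were below both CC clones at 6 of 20 genes and above at 1, beside 12.3% and 13.2% of all genes. Of the 20, 5 were lower at an unadjusted p under 0.05, beside 2.62% of all genes, and 0 were called. The median log2 difference was -0.20 (-0.18 without CC1 and -0.19 without CC3). HSPH1, a nucleotide exchange factor of HSP70, was at 182, 141 and 145 in GC and 242 and 226 in CC (-0.59 ± 0.16). DNAJA1, an HSP40 co-chaperone, was at 134, 124 and 122 in GC and 194 and 192 in CC (-0.60 ± 0.17), and HSPA4 at 229.8, 226 and 194 in GC and 293 and 317 in CC (-0.50 ± 0.16). The same genes differed by -0.35, -0.38 and -0.42 without palmitic acid. Among 27 endoplasmic reticulum chaperone and unfolded protein response genes, 5 were below in all GC clones and 0 above, beside 12.3% and 13.2% of all genes, and the median of -0.01 became -0.20 without CC3. DNAJC3, the PERK inhibitor P58IPK, was at 149.5, 132 and 126 in GC and 183 and 189 in CC (-0.45 ± 0.17), and DERL2, of the machinery that removes misfolded proteins, at 26.7, 27.2 and 17.2 in GC and 40.4 and 32.4 in CC (-0.63 ± 0.24).

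The integrated stress response, the programme of ATF4 and DDIT3, separated the 2 CC clones and not the genotypes. Centred medians of its 28 genes were -0.46, 0.13 and 0.36 in the GC clones and -0.78 and 0.74 in CC1 and CC3, so that both extremes were CC clones. The median log2 difference of 0.06 turned to -0.67 without CC1 and was 0.76 without CC3. DDIT3, the factor CHOP, was at 10.3, 20.1 and 33.4 in GC and 8.02 and 14.2 in CC (0.81 ± 0.46), and NUPR1, a stress-induced chromatin protein, at 34.4, 37.7 and 25.5 in GC and 15.1 and 25.6 in CC (0.70 ± 0.29). Among 27 targets of NRF2, the antioxidant factor, the median was 0.29 (0.23 without CC1 and 0.52 without CC3), with NQO1 at 473, 563 and 683 in GC and 332 and 473 in CC (0.52 ± 0.25). Of 35 autophagy and lysosome genes, 4 were above and 7 below in all GC clones, beside 13.2% and 12.3% of all genes, with GAA, lysosomal glucosidase, at 107, 137 and 179 in GC and 78.2 and 68.9 in CC (0.91 ± 0.25). WIPI1, an autophagosome protein, was at 87.1, 66.1 and 75.3 in GC and 38.5 and 48.6 in CC (0.80 ± 0.28).

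Cell cycle genes were highest in CC1 alone. The centred medians over 42 genes were -0.22, -0.17 and -0.20 in the GC clones and 0.75 and -0.31 in CC1 and CC3, and the median log2 difference of -0.43 became 0.09 without CC1 and -0.98 without CC3. CCNE2, cyclin E2, was at 2.86, 2.57 and 2.91 in GC and 4.43 and 4.01 in CC (-0.53 ± 0.35) and CDKN2A, the inhibitor p16, at 9.19, 6.98 and 14.54 in GC and 20.3 and 16.7 in CC (-0.88 ± 0.55), both below in all GC clones. CDKN2B, the inhibitor p15, was at 2.86, 3.05 and 0.469 in GC and 2.11 and 46.7 in CC (-2.30 ± 1.40), high in CC3 only. The 23 replication histone genes were also highest in CC1, with centred medians of -0.40, 0.21 and 0.11 in the GC clones and 0.54 and -0.50 in CC1 and CC3. Of 25 p53 targets, 1 had an unadjusted p under 0.05, the ubiquitin ligase MDM2, at 332, 310.4 and 385 in GC and 473 and 664 in CC (-0.72 ± 0.22). At that p, 3.65% of all genes were higher and 2.62% lower in GC. Of 33 survival and death genes, the pro-apoptotic BCL2L11 was at 48.6, 44.2 and 41.7 in GC and 62.1 and 71.1 in CC (-0.56 ± 0.19), lower in all GC clones.

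Epithelial and S100 genes held the 1 called gene, MUC5AC. Apart from it, 2 genes were higher and 2 lower in GC at an unadjusted p under 0.05 among the 30 tested. The shares over all tested genes were 3.65% higher and 2.62% lower. The list median of -0.27 became 0.17 without CC3. S100A6 was at 0.340, 1.36 and 0.188 in GC and 1.97 and 5.53 in CC (-1.91 ± 0.56). ESRP2, a splicing regulator of epithelial cells that is named after its values were seen, was at 42.9, 26.9 and 35.1 in GC and 16.2 and 16.3 in CC (1.06 ± 0.33). Among 36 matrix genes, MMP11 was at 18.4, 20.1 and 38.8 in GC and 12.2 and 7.49 in CC (1.298 ± 0.38), while COL7A1 was at 40.0, 46.2 and 52.6 in GC and 62.1 and 101 in CC (-0.77 ± 0.28) and the proteoglycan gene BGN at 1.91, 7.95 and 1.13 in GC and 8.58 and 12.9 in CC (-1.78 ± 0.65). Of 42 cytoskeleton and adhesion genes, ITGA5, the fibronectin receptor subunit, was at 3.06, 14.8 and 7.32 in GC and 35.0 and 48.6 in CC (-2.47 ± 1.00), below both CC clones in all GC clones. In the inflammation list, NFKBIA, which holds NF-kB in the cytoplasm, was at 58.1, 35.2 and 25.3 in GC and 75.6 and 61.4 in CC (-0.86 ± 0.32), opposite in sign to TNFAIP3. ISG15 was at 30.8, 34.3 and 36.2 in GC and 22.8 and 22.5 in CC (0.56 ± 0.26) among 32 interferon-stimulated genes, of which 6 were above and 2 below in all GC clones, beside 13.2% and 12.3% of all genes. The other lists held 0 called genes, and their medians moved with the CC clone left out. The median was 0.01 for glycolysis and hypoxia (-0.02 without CC1 and 0.04 without CC3), 0.10 for gluconeogenesis (-0.13 without CC1 and 0.32 without CC3) and 0.11 for metallothioneins and iron (-0.05 without CC1 and 0.46 without CC3). It was -0.01 for YAP and TEAD targets (-0.28 without CC1 and 0.10 without CC3), 0.23 for oncofetal genes (0.11 without CC1 and 0.11 without CC3) and 0.16 for fatty liver risk loci (0.12 without CC1 and 0.08 without CC3).

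For markers of other liver cell types the summed levels of GC and CC overlapped in each list. Summed levels were 37.5 to 67.2 units in GC and 63.5 and 37.6 in CC1 and CC3 for 8 stellate and fibroblast markers of 12 listed, 11.3 to 14.2 and 11.7 and 9.76 for 5 endothelial markers of 10, and 3.66 to 9.80 and 4.36 and 6.08 for 5 lymphocyte markers of 10. They were 453 to 1060.5 and 399 and 816 for 4 macrophage markers of 12, nearly all of it LYZ, and 353 to 413 and 361 and 299 for 5 biliary markers of 8. No marker in the table was at 0 in all 5 libraries. Of the 16 of these markers above the filter on low values, 0 were called; the log2 differences were -0.89 ± 0.47 for COL3A1, 0.46 ± 0.34 for RGS5, -0.62 ± 0.98 for PDGFRB and 0.15 ± 0.57 for ACTA2, of stellate cells and fibroblasts. They were 0.37 ± 0.71 for PECAM1 and -0.20 ± 0.84 for LYVE1 (endothelium), 0.36 ± 0.42, 0.30 ± 0.43 and 0.01 ± 0.49 for CD14, LYZ and CD68 (macrophages), and -0.73 ± 0.69 and 0.52 ± 0.71 for CD3D and CD4 (lymphocytes). The biliary markers SOX9, EPCAM and KRT19 stood at 0.23 ± 0.19, 0.35 ± 0.31 and -1.13 ± 1.51. Hepatocyte markers were present in all 5, which fits a hepatocyte-derived line.

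By chromosome, the median log2 difference ran furthest from 0 on chromosome 20, at -0.22 over 360 genes, with all GC clones below both CC clones at 32.2% of them beside 12.3% of all genes. In 10 Mb windows, chromosome 20 fell into 3 stretches, whose borders were set after the windows were seen. Over the first 20 Mb (87 genes) the median was 0.05. Between 20 and 30 Mb, 13 of 22 genes were above in all GC clones and 0 below, with a median of 0.45. Over all tested genes, 13.2% were above and 12.3% below. From 30 Mb to the end, 109 of 251 genes were below in all GC clones and 15 above, with a median of -0.32, a level 1.25-fold lower in GC. The last 2 stretches differed alike without palmitic acid, with medians of 0.43 and -0.33. Per library, the median over the last stretch was -0.20, 0.01 and -0.18 in the GC clones and 0.18 and 0.15 in CC1 and CC3, so that GC3 lay between the other GC clones and the CC clones. In the stretch before it the values were 0.20, -0.05 and 0.33 in the GC clones and -0.33 and -0.30 in CC1 and CC3. TTI1, CTNNBL1, PTPN1 and ZMYND8 lie in the last stretch and FOXA2 in the one before it. NSFL1C, lower in GC, and RIN2, higher in GC, both start in the first stretch. DNA copy number was not measured, and its part in these differences was not tested.

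**Figure D4:**
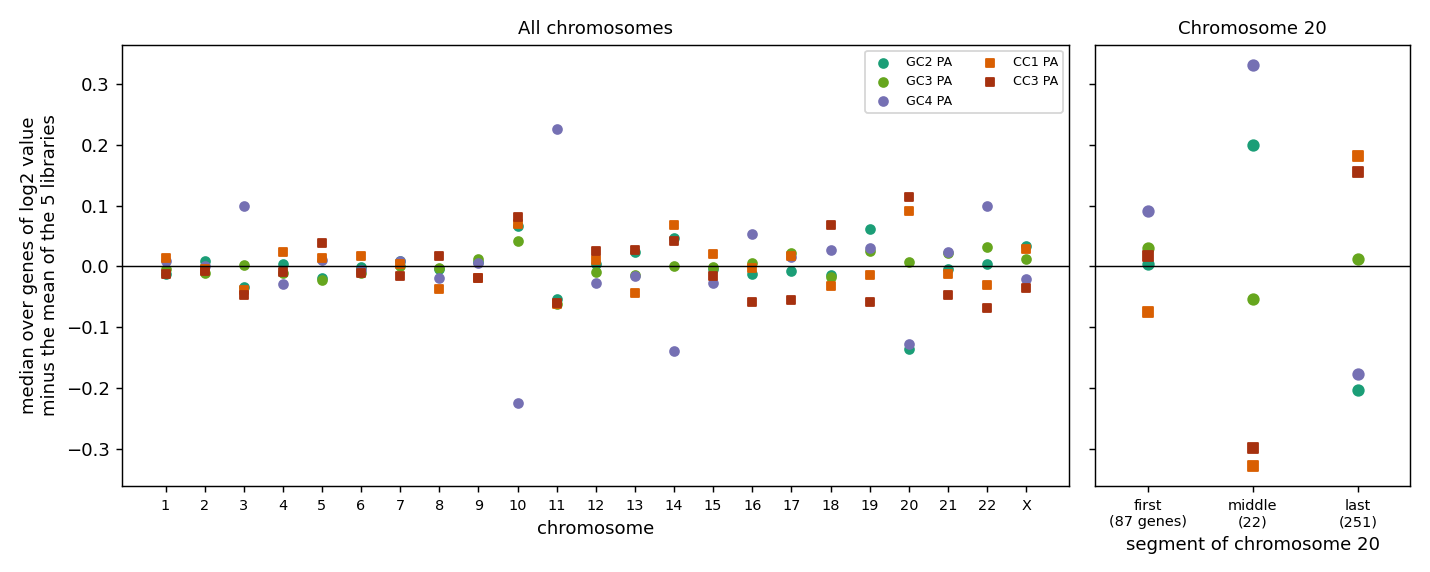
Left: for each chromosome, the median over its genes of log2(units + 0.5) minus the mean of the 5 libraries, 1 point per treated clone (circles GC, squares CC). Right: the same for 3 stretches of chromosome 20, where both CC clones lie below all GC clones in the middle stretch and above them in the last; GC4 stands apart on chromosomes 10, 11 and 14.

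Of 230 windows of 10 Mb with at least 20 genes over the genome, 14 had a median of at least 0.25 in size, 8 lower and 6 higher in GC, and 4 of the 14 lay on chromosome 20. On chromosomes 10, 11, 14 and 3 GC4 stood apart. GC4 alone was low on chromosome 10 (-0.23, against 0.04 to 0.08 in the other 4) and high on chromosome 11 (0.23, against -0.06 to -0.05). On chromosome 14 from 30 to 40 Mb, the median difference of -0.40 over 41 genes went with -0.61 in GC4, -0.06 in GC3, 0.21 in GC2 and CC1 and 0.18 in CC3. On chromosome 3 from 180 to 190 Mb, where AHSG lies, the median difference of 0.34 over 49 genes went with 0.45 in GC4 and 0.08 in GC3 against -0.21 in GC2, -0.17 in CC1 and -0.20 in CC3.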

How the data were processed

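RNA of HepG2 clones was sequenced after ribosomal RNA depletion with a stranded kit, per the labels' protocols. Trimmomatic 0.38, Bowtie2, RSEM 1.3.0, edgeR and the build hg38 appear in the submitters' processing notes, which give no order. The sources used here do not give the annotation. The authors deposited 1 normalised signal table of 16558 genes and 16 libraries. Its values are CPM with TMM scaling: 100% of them are whole multiples of what 1 read is worth (tolerance 0.01 reads), and TMM factors recomputed from those reads differed by at most 2.22e-16. RSEM gives estimated counts, so the recovered whole reads may be rounded.

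Groups came from the labels. The 13082 genes whose average over the 5 libraries reached 1 unit were tested on log2(value + 0.5), since a pseudocount is needed, and it understates differences of low genes. limma 3.58.1 (R 4.3.3) with trend was fitted on the 8 treated libraries, two-sided, with Benjamini-Hochberg adjustment over all tested genes and a threshold of 0.05. The control comparison used the 8 untreated libraries, and the difference of differences all 16. The same clone with and without palmitic acid shares a number, and deviations of its 2 libraries from their group means correlated at r = 0.795 (GC2), 0.523 (GC3), 0.803 (GC4) and 0.745 (both CC clones, which mirror each other); the pairing comes from the clone. Each group holds separate clones, with 1 library each, and p-values of the treated and the control comparison measure the spread between these clones. The fit of the change on all 16 libraries treated both libraries of a clone as independent, despite these correlations. With each clone as a block, the p-value measures the spread of the change between clones of the same genotype. edgeR 4.0.16 and DESeq2 1.42.0 were run on the recovered reads as alternatives, beside other pseudocounts, filters, scalings, sets of libraries and leaving out each library. Scripts were tested on simulated data.

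Genes named were the 15 each way with the smallest p among genes without overlap and with an average of 5 units or more where the level was higher, the 5 largest differences each way, up to 3 genes of each list by p, all of the cell type markers tested in lists with fewer than 8, and PNPLA3 with its neighbours. A few genes that these rules name are not reported here. The genes, lists and comparisons were chosen with earlier results of these data known. Positions are from GENCODE on GRCh38. Intervals and the floor of 3 reads cover counting error only.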

Additional observations from a re-analysis of the deposited data

Results flagged for a closer look

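A test of the change in GC minus CC from control to palmitic acid (limma, 16 libraries) called 2 of 13082 genes (0.0153%). Both genes passed the filter on low values through the treated CC clones. That fit treated both libraries of a clone as independent. For MUC5AC the change was -4.06 on the log2 scale (adjusted p = 0.00102), and for CEACAM6 it was -3.10 (adjusted p = 0.0170). In both genes the 2 treated CC clones held reads, and the other 14 libraries held at most 1 read each. With each clone as a block, the adjusted p was 0.00947 for MUC5AC and 0.117 for CEACAM6.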

How the results depend on the processing

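The comparison under palmitic acid called 1 gene, and 3 with all 16 libraries without a clone term or with the clone as a random replicate block (MUC5AC, CEACAM6 and MUC1 in both). It called 9 without a filter on low values, 16 in DESeq2, and 0 with only the 5 libraries, with a pseudocount of 0.1, with a mean of at least 10 units (which leaves MUC5AC untested) and in edgeR. The 9 called without a filter were MUC5AC, CEACAM6, MUC1, TFF1, TFF2, REG4, ALDH1A3, KLK10 and CER1. All but CER1 are also among the genes picked by the search made after the values were seen. Leaving out each library gave 0 to 0 calls, with 436 to 1541 genes at an unadjusted p under 0.05. The change from control to palmitic acid called 2 genes, 1 with the clone as a fixed replicate block, 0 with a pseudocount of 0.1 and 0 to 1 when a clone was left out. The control comparison called 0 genes and 0 to 1 when a library was left out; that call, PPAN-P2RY11 without CC3, is a read-through gene. Over 121 genes and 1900 gene-setting pairs, 17 reversed sign, none of them a called value. When each library was left out in turn, the log2 differences ran from -0.62 to 0.91 for ACTA2, -1.74 to 0.28 for CD3D, -0.14 to 1.14 for CD4, -0.48 to 0.42 for CD68, -1.30 to 0.70 for GCNT3, -0.90 to 0.49 for LYVE1, -0.22 to 0.83 for LYZ, -1.85 to 0.61 for PDGFRB, -0.17 to 0.92 for PECAM1, -0.48 to 1.93 for PNPLA3, -0.25 to 0.56 for SAMM50 and -0.055 to 2.49 for TF. The reversals came on leaving out CC3 for PNPLA3, SAMM50, TF, PECAM1, CD3D, LYVE1 and PDGFRB, CC1 or GC2 for LYZ, CC3 or GC4 for ACTA2 and GCNT3, CC1 or GC4 for CD68 and GC2 for CD4. CD68 also turned to -0.053 with quantile normalization. The cause was not tested. Depth limits the mucous genes, since 1 read is worth 0.0681 to 0.108 units.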

Other observations

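Some genes split the clones of 1 genotype, and those given here were chosen after their values were seen. ALDH1A1, a retinaldehyde dehydrogenase, was at 0.953, 181 and 465 units in GC2, GC3 and GC4 and at 1.48 and 0.542 in CC1 and CC3, so that GC2 resembled the CC clones in level. IGF2, a fetal growth factor, was at 1.63, 71.4 and 140.0 units in the GC clones and at 161 and 119 in the CC clones, with GC2 alone near 0.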
